A study of Mus musculus with 12 samples.

Results

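The cyclic AMP (cAMP) response and phosphodiesterase genes are 10 genes chosen by name: 4 cAMP phosphodiesterases (Pde4a, Pde4b, Pde4d and Pde3b) and 6 genes that the transcription factor CREB is known to induce (Crem, Nr4a1, Nr4a2, Nr4a3, Fos and Sik1). They are 10 of the 54532 genes listed, and each is followed across 4 groups of libraries, because the adipogenic medium holds a phosphodiesterase inhibitor, isobutylmethylxanthine.

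Hormones that act through Gs-coupled receptors make adenylyl cyclase produce cAMP, which activates protein kinase A and, through it, CREB. CREB binds the cAMP response element of its target promoters and induces short-lived transcription factors, nuclear receptors, kinases and phosphodiesterases, several of which dampen the signal in turn. In marrow stromal cells the pathway is known for the response to parathyroid hormone and, when phosphodiesterases are inhibited, for the onset of adipocyte differentiation.

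RNA was sequenced from cultured bone marrow mesenchymal stem cells of C57BL/6 mice aged 4 weeks, in 12 libraries that form 4 groups of 3. Control cells carried the floxed Chd7 gene without Cre (Chd7 fl/fl), and knockout cells carried it with Prx1-cre (Prx1-cre; Chd7 fl/fl), so both genotypes share the floxed exon 2. Cells of either genotype were at passage 3 and were kept for 5 days in osteogenic or adipogenic medium. The comparisons ask how loss of this chromatin remodeller alters the genes expressed in each medium.

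Osteogenic cultures received ascorbic acid (50 µM), β-glycerophosphate (10 mM) and dexamethasone (10 nM). Adipogenic cultures received isobutylmethylxanthine (labelled as 0.5 µM), dexamethasone (1 µM) and insulin (10 µg/ml). The labelled inhibitor dose is far below the dose usual in adipogenic media, and whether its unit is right was not tested. Dexamethasone was thus in both media at different doses, and no group differed from another by the inhibitor alone. Prx1-cre is active in early limb mesenchyme, so blood cells carried along from flushed marrow would keep an intact Chd7. Whether the 3 libraries of a group came from separate animals is not stated, so p-values below measure the spread between these libraries only. Levels are FPKM, that is fragments scaled by exon length and by a factor for each library. The deposited values stood at a common median ratio, while their sums lay between 0.935 and 1.20 times the mean sum. Between 17490794 and 21093464 fragments lay on genes in each library.

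Libraries in the adipogenic medium did not all resemble their own group. Across 12871 genes, control adipogenic library 2 had a mean Pearson r of 0.941 with the other libraries of its group, against 0.981 with control osteogenic and 0.983 with knockout osteogenic libraries. Its fragment counts differed from libraries 1 and 3 by a mean chi-square per gene of 130 and 126, while libraries 1 and 3 differed from each other by 8.63. Knockout adipogenic library 1 stood apart less, with 23.1 and 20.3 against 3.26 between libraries 2 and 3. For 7 of the 10 members, results that rest on these libraries are given with and without them, a comparison chosen after seeing the data. Results of Chd7, Pde4d, Nr4a2 and Nr4a3 that rest on them are given with them only.

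Chd7 itself was read first. Its level was 2.64, 2.67 and 2.77 FPKM in the control osteogenic libraries and 2.03, 2.35 and 2.28 in those labelled knockout. In adipogenic medium it was 2.26, 1.81 and 2.23 in control libraries and 2.03, 2.35 and 2.48 in those labelled knockout. The osteogenic groups did not overlap and the adipogenic groups did. The difference on the log2(FPKM + 1) scale was -0.20 (SE 0.0787, adjusted p 0.160) in osteogenic and 0.09 (SE 0.0787, adjusted p 0.428) in adipogenic medium. FPKM over the whole gene does not read exon 2 alone, so these values leave the deletion itself unmeasured, and the groups below are named as labelled. With TPM the adipogenic difference was 0.22 (adjusted p 0.0471) and with voom 0.27 (adjusted p 0.0353), both higher in libraries labelled knockout, and with only osteogenic libraries in the fit the osteogenic difference passed (adjusted p 0.0474).

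The cultures held more than stromal cells. Of 7 stromal markers 6 passed the expression filter, Col1a1 was the most abundant, and their summed level was 1377, 1206 and 1277 FPKM in control osteogenic, 1492, 1344 and 1495 in knockout osteogenic, 1828, 1563 and 1659 in control adipogenic and 1705, 1760 and 1754 in knockout adipogenic libraries. The stromal marker Thy1 was low, between 0.206 and 1.03 FPKM. All 9 macrophage markers passed, and Lyz2, the lysozyme of myeloid cells, was the most abundant of them and made up 78.2% to 89.2% of their sum. Their summed level was 10524, 10938 and 10822 FPKM in control osteogenic and 12622, 12407 and 12397 in knockout osteogenic libraries. In adipogenic medium it was 16377, 6979 and 16817 FPKM in control and 6315, 4918 and 5077 in knockout libraries, so control adipogenic library 2 lay above the knockout libraries and below all the osteogenic ones. The sum is thus mostly Lyz2, and single markers differed from it: in osteogenic medium 0 of 9 were called higher and 2 lower in knockout cells (Csf1r and Cd163; median -0.13), beside 4.94% of all tested genes called higher and 4.15% lower, and in adipogenic medium 1 was higher (Cd163) and 5 lower (median -1.01), beside 16.7% and 16.5%. Over the alternative fits the number called ranged from 1 to 6 in osteogenic and from 1 to 9 in adipogenic medium. Fewer cells of a type and less RNA per cell cannot be told apart in such bulk samples.

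Markers of other cells were sparse, and most defining markers of fat cells were near 0. Of 8 adipocyte markers 3 passed (Pparg, Cebpa and Fabp4) while Adipoq, Plin1, Cidec, Lep and Cfd did not, and Adipoq lay between 0 and 0.600 FPKM. The adipocyte list summed to 149, 146 and 152 FPKM in control osteogenic, 129.8, 136 and 127 in knockout osteogenic, 57.5, 104 and 58.9 in control adipogenic and 99.2, 137 and 139.6 in knockout adipogenic libraries, with Cebpa the most abundant. Of 5 endothelial markers 3 passed, Cdh5 was the most abundant, and the list summed to 2.61, 2.44 and 2.64 FPKM in control osteogenic, 6.70, 6.19 and 6.12 in knockout osteogenic, 3.97, 3.49 and 4.08 in control adipogenic and 5.05, 6.91 and 6.57 in knockout adipogenic libraries. Of 4 neutrophil markers only S100a8 passed and S100a9 was listed at 0 in all 12 libraries. The neutrophil list summed to 65.8 and 86.0 FPKM in control adipogenic libraries 1 and 3 and to between 1.22 and 6.01 in the other 10. None of 3 lymphoid markers passed, Cd79a was the most abundant with at most 0.212 FPKM, the sums lay between 0 and 0.212, and Cd3e was listed at 0 in all 12 libraries.

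CREB recognises the cAMP response element, whose full form is TGACGTCA and whose short form is TGACG. Promoters of 300 bases (250 before to 50 after an annotated start) were taken from the RefSeq table of build GRCm38.p6. For the members, 12 promoters of 7 of the 10 genes were read. No promoter of Crem, Pde3b or Sik1 was searched, so the member counts here say nothing about those genes. Both motifs were searched on both strands, the short form being part of the full form. None of the 12 promoters held the full form, which 588 of all 32851 promoters (1.79%) held. The promoters of Nr4a1, Nr4a2 and Nr4a3 held 4 TGACG sites each, a number that 76 of all promoters (0.231%) reached or passed. The Fos promoter held 2, as 1647 of all promoters (5.01%) did at least, and 1 of 4 Pde4b promoters and 1 of 3 Pde4a promoters held 1, as 6837 (20.8%) did at least. The only Pde4d promoter read held none, and other starts of that gene were not searched. The 4 promoters richest in TGACG sites and the Pde4b promoter with 1 are printed because their genes are compared below, with TGACG or its reverse complement CGTCA in capitals; they lie at chr15:101266596-101266895 (+ strand), chr2:57123954-57124253 (- strand), chr4:48045055-48045354 (+ strand), chr12:85473640-85473939 (+ strand) and chr4:102421305-102421604 (+ strand).
Nr4a1: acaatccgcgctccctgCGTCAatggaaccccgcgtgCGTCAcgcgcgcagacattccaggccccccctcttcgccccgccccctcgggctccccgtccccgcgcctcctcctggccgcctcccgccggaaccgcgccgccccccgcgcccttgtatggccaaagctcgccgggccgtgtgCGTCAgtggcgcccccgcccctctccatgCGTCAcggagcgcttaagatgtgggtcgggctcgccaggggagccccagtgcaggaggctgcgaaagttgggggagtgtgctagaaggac
Nr4a2: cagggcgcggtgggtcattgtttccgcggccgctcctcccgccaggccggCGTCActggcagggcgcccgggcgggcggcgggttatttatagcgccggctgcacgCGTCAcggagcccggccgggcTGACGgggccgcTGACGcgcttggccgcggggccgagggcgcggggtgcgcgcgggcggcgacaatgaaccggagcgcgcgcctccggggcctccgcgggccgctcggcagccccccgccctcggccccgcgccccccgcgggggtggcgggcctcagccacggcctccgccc
Nr4a3: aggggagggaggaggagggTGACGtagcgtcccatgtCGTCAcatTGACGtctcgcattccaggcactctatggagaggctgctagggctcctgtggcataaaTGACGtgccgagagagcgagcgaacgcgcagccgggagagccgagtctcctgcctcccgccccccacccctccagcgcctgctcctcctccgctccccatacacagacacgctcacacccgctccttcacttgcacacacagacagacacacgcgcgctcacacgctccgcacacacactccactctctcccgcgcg
Fos: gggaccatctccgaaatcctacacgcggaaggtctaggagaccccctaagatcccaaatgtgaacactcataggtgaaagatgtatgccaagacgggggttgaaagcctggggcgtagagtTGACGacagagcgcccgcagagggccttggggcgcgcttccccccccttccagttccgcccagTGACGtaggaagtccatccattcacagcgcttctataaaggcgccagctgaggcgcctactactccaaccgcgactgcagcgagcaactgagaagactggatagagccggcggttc
Pde4b: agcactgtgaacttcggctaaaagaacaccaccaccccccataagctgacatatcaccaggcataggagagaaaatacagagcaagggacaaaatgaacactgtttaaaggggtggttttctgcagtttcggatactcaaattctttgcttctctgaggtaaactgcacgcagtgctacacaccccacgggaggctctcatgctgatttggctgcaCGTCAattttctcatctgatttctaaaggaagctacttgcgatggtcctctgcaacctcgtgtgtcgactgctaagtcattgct

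**Figure D1:**
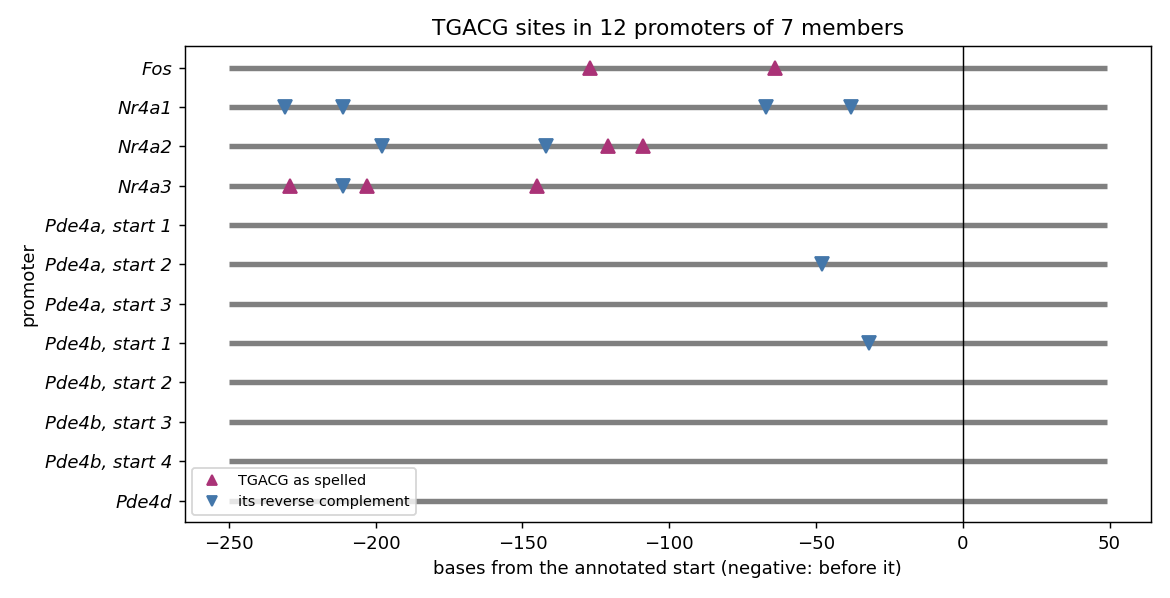
Short forms (TGACG) of the cAMP response element in 12 promoters of 7 members, by distance in bases from the annotated start; triangles mark the site and its direction and the grey bar the 300 bases searched. The Nr4a promoters hold 4 each, spread over the bases before the start, and the Fos promoter holds 2.

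These letters describe the sequence and do not show that CREB was bound. In Nr4a1 the TGACG sites began 233, 213, 69 and 40 bases before the start, and in Nr4a2 200, 144, 123 and 111 bases before it. In Nr4a3 they began 231, 213, 205 and 147 bases before the start, and in Fos 129 and 66. The Pde4b site began 34 bases before its start.

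The 10 genes differed widely in level, and no library was highest for all of them. Fos had the highest mean, 30.4 FPKM, followed by Sik1 with 6.32, Pde4a with 4.05 and Nr4a1 with 2.25. Nr4a3 had the lowest, 0.0948 FPKM, from 1 to 26 fragments a library. A gene was tested if it reached 1 FPKM in at least 3 of the 12 libraries: 7 of the 10 genes did, and Pde4d, Nr4a2 and Nr4a3 did not. Pde4b reached that level in 3 libraries, all in adipogenic medium, so it passed only through libraries in which it was high. Differences below are on the log2(FPKM + 1) scale, where the added 1 shrinks the change of any gene near or under 1 FPKM.

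**Figure D2:**
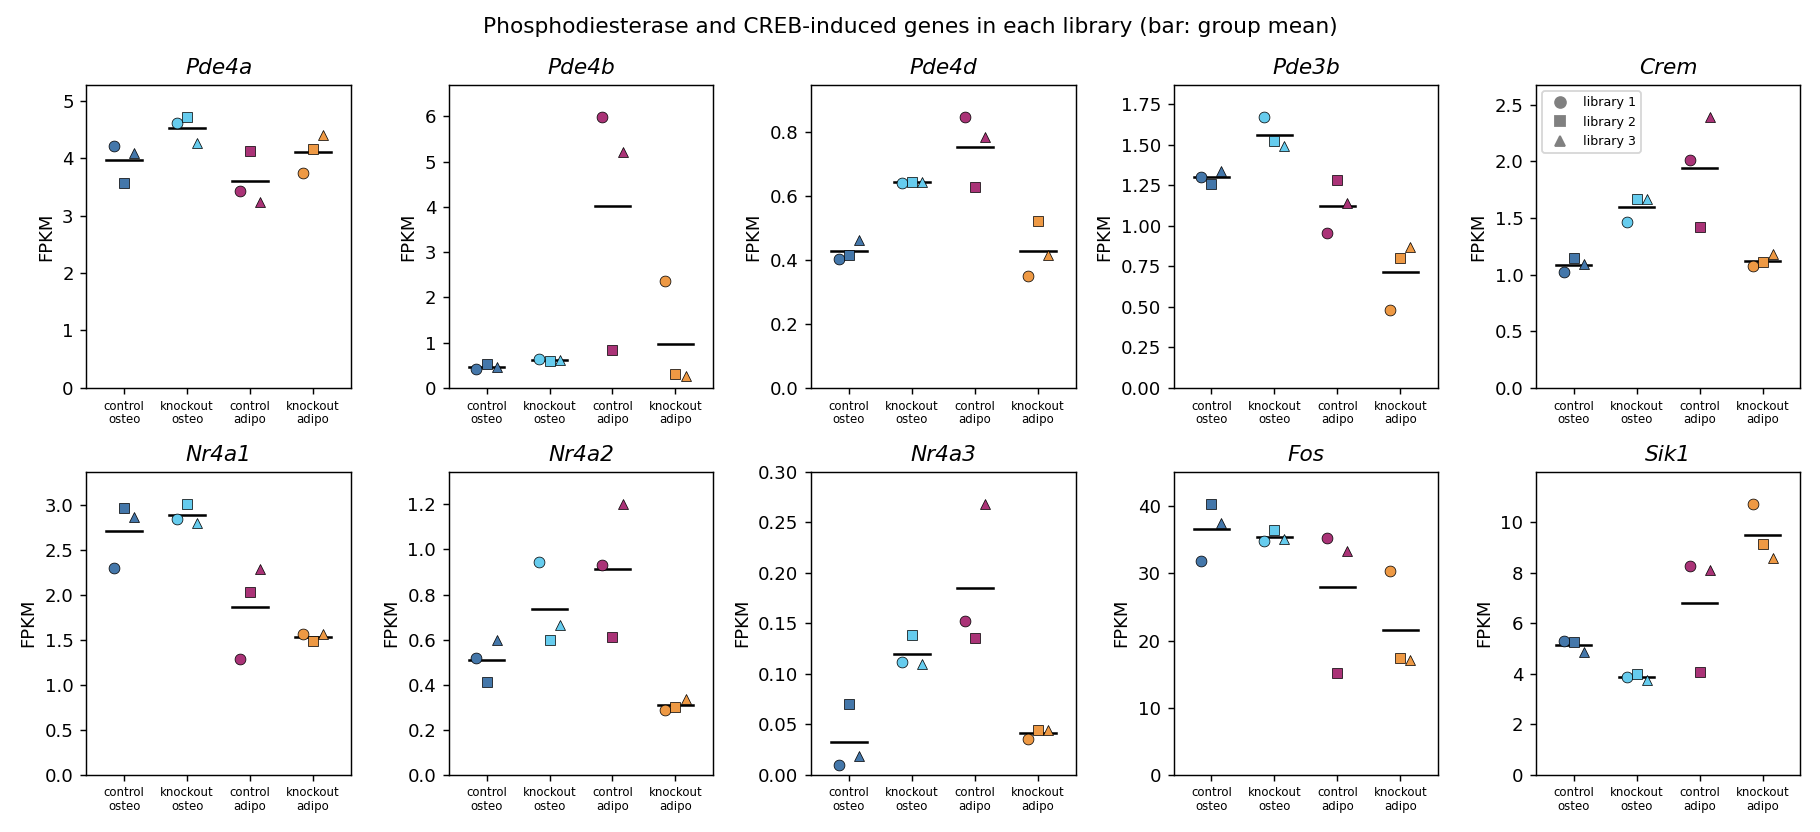
Level in FPKM of each of the 10 genes in each library, by group, with a bar at the group mean and a symbol for the library number. Crem, Pde4d, Nr4a2 and Nr4a3 are higher in knockout than in control means in osteogenic medium and lower in adipogenic medium, and Pde4b is high in control adipogenic libraries 1 and 3.

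Pde4b (ENSMUSG00000028525; chr4:102087543-102607259 in GENCODE M21 on GRCm38) encodes a cAMP-specific phosphodiesterase of the PDE4 family and had the widest range of the tested members, with its highest library 23.1 times its lowest. Its level was 0.428, 0.524 and 0.461 FPKM in control osteogenic and 0.627, 0.597 and 0.608 in knockout osteogenic libraries. In adipogenic medium it was 5.98, 0.833 and 5.21 FPKM in control and 2.35, 0.296 and 0.259 in knockout libraries. The osteogenic groups did not overlap but were close, while in adipogenic medium control libraries 1 and 3 were far above all others, and control library 2 lay below knockout library 1. The order of group means was control osteogenic, knockout osteogenic, knockout adipogenic and control adipogenic, and of neighbours in that order only the osteogenic pair did not overlap.

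Because Pde4b passed the filter only through libraries where it was high, its calls are given as a description and are no support for a difference. In control cells adipogenic minus osteogenic was 1.55 (SE 0.490, adjusted p 0.0466; higher in 3 of 3 libraries). This call was made with all libraries and without control adipogenic library 2, where the difference was 2.16 (adjusted p 0.000633). It was not made without control osteogenic library 1 (adjusted p 0.112), 2 (0.107) or 3 (0.106), or without control adipogenic library 1 (1.20, adjusted p 0.164) or 3 (1.28, adjusted p 0.158). It was also lost with FPKM rescaled to the same sum in each library (TPM, adjusted p 0.0540), a pseudocount of 0.1 (0.0516), no filter (0.101), a fit to the compared libraries alone (0.131), a replicate block (0.0679) or limma's voom on fragments (0.0919). Knockout against control in adipogenic medium gave -1.29 (SE 0.490, adjusted p 0.0679), which passed with a replicate block (adjusted p 0.0271), without control library 2 (-1.90, adjusted p 0.0013) and without knockout library 1 (-1.75, adjusted p 0.0214). Without both it was -2.37 (SE 0.0923, adjusted p 7.33e-08). The difference between the genotype effects of the media was -1.42 (adjusted p 0.175), -2.03 (adjusted p 0.00624) without control adipogenic library 2 and -2.50 (adjusted p 4e-07) without both. In osteogenic medium knockout minus control was 0.13 (adjusted p 0.919). The change by medium in knockout cells was 0.13 (adjusted p 0.875) with all libraries and -0.33 (adjusted p 0.0117) without both.

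Within each adipogenic group, the libraries high in Pde4b had the higher macrophage sums. Its level in control adipogenic libraries 1 and 3 was 6.72 times that in library 2, and in the same libraries the macrophage markers summed to 16377 and 16817 against 6979 FPKM. In knockout adipogenic library 1 Pde4b was 8.48 times the mean of libraries 2 and 3, beside macrophage sums of 6315 against 4918 and 5077 FPKM. The osteogenic libraries had macrophage sums of 10524 to 12622 FPKM and Pde4b of at most 0.627 FPKM, and control adipogenic library 2 had a higher sum than knockout adipogenic library 1 (6979 against 6315 FPKM) with less Pde4b (0.833 against 2.35 FPKM), so the level of that list alone did not order the libraries by Pde4b. The neutrophil marker S100a8 read 65.8 and 86.0 FPKM in control adipogenic libraries 1 and 3 and 2.48 in library 2, in step with Pde4b, but 1.99 FPKM in knockout adipogenic library 1, near libraries 2 and 3 (1.22 and 1.82). The part of these cells in the result was not tested.

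**Figure D3:**
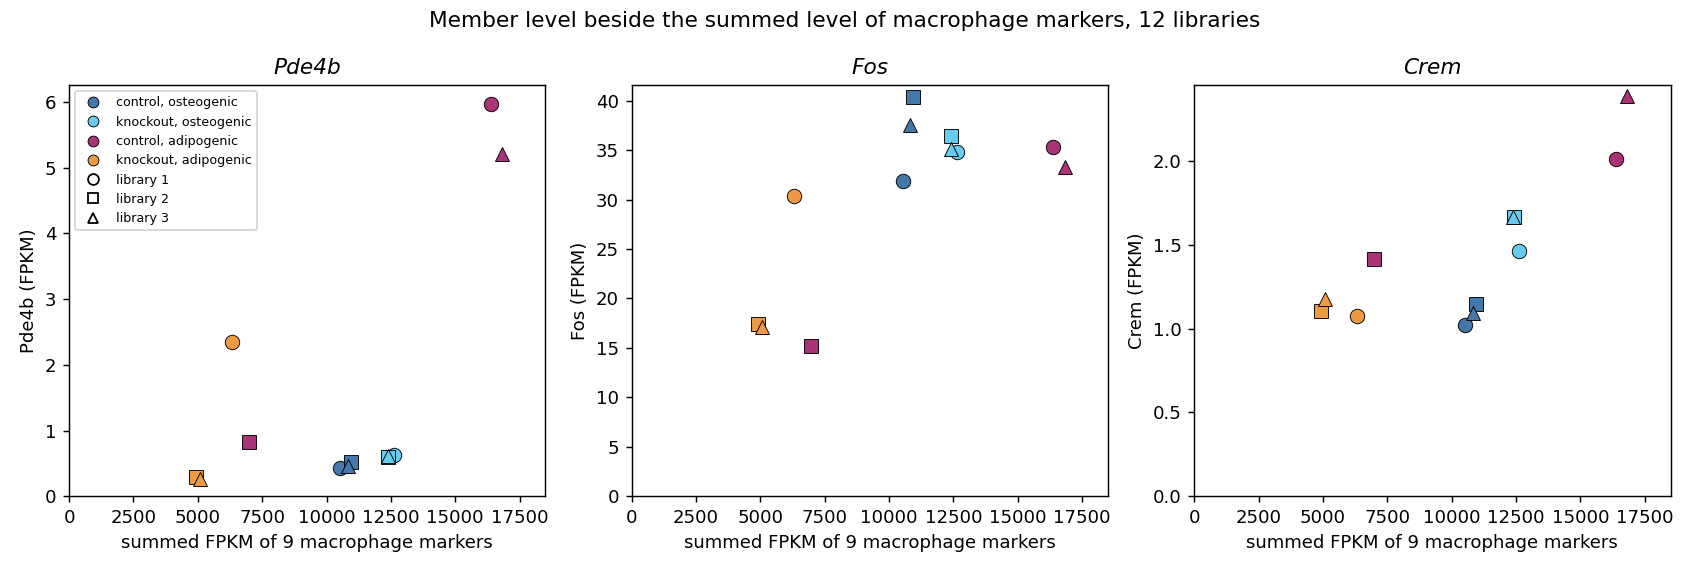
Level in FPKM of Pde4b, Fos and Crem in each of the 12 libraries (vertical) against the summed FPKM of 9 macrophage markers (horizontal), coloured by group with a symbol for the library number. Control adipogenic libraries 1 and 3 lie at the right, and control adipogenic library 2 lies nearer the knockout adipogenic libraries on that axis, within their range for Pde4b, below it for Fos and above it for Crem.

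Pde4a (ENSMUSG00000032177; chr9:21165714-21213248), another PDE4 enzyme, was the most even of the members, with its highest library 1.45 times its lowest. It read 4.21, 3.57 and 4.09 FPKM in control osteogenic, 4.61, 4.71 and 4.27 in knockout osteogenic, 3.43, 4.13 and 3.24 in control adipogenic and 3.74, 4.15 and 4.41 in knockout adipogenic libraries. Control adipogenic had the lowest mean and knockout osteogenic the highest, with control osteogenic and knockout adipogenic between, and each neighbour in this order overlapped the next. No difference passed with all libraries: knockout minus control was 0.16 (adjusted p 0.306) in osteogenic and 0.15 (adjusted p 0.194) in adipogenic medium. Its adipogenic difference passed without control library 2 (0.23, adjusted p 0.0259) and without both libraries standing apart (0.28, adjusted p 0.00976). Adipogenic minus osteogenic was -0.11 (adjusted p 0.361) in control cells, which passed without both (-0.19, adjusted p 0.0383), and -0.12 (adjusted p 0.334) in knockout cells. The genotype effects of the media differed by -0.01 (adjusted p 0.974).

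Pde4d (ENSMUSG00000021699; chr13:108449948-109953461), the long PDE4 gene with many start sites, stayed under 1 FPKM in all 12 libraries. Its level was 0.404, 0.416 and 0.462 FPKM in control osteogenic and 0.640, 0.645 and 0.645 in knockout osteogenic libraries. In adipogenic medium it was 0.846, 0.629 and 0.787 FPKM in control and 0.350, 0.521 and 0.416 in knockout libraries. The genotypes did not overlap in either medium, and the sides were exchanged: knockout libraries were the higher in osteogenic and the lower in adipogenic medium. The lowest neighbours, control osteogenic and knockout adipogenic, overlapped, and so did the highest, knockout osteogenic and control adipogenic, with no overlap between the pairs.

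Pde3b (ENSMUSG00000030671; chr7:114415281-114539251) encodes the phosphodiesterase that insulin activates in fat cells. Its level was 1.30, 1.26 and 1.33 FPKM in control osteogenic and 1.67, 1.52 and 1.49 in knockout osteogenic libraries. Adipogenic cultures gave 0.955, 1.28 and 1.14 FPKM in control and 0.479, 0.803 and 0.866 in knockout libraries. Knockout adipogenic libraries were below all others, control adipogenic libraries overlapped control osteogenic ones, and knockout osteogenic libraries were the highest with no overlap.

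Within knockout cells Pde3b fell in adipogenic medium, by 0.58 (SE 0.0985, adjusted p 0.0019; lower in 3 of 3 libraries), and this held with each library left out in turn (adjusted p 0.00359 to 0.0102). Between genotypes in adipogenic medium the difference was -0.31 (SE 0.0985, adjusted p 0.0345). That call was lost without control library 2 (-0.26, adjusted p 0.0664), control library 3 (-0.31, adjusted p 0.0872), knockout library 1 (-0.21, adjusted p 0.0938) or both libraries standing apart (-0.16, adjusted p 0.152). It was also lost with TPM (-0.23, adjusted p 0.161), with voom (adjusted p 0.0692), with no filter (adjusted p 0.0810) and with only the adipogenic libraries in the fit (adjusted p 0.160). In osteogenic medium knockout minus control was 0.16 (adjusted p 0.394), and adipogenic minus osteogenic in control cells was -0.12 (adjusted p 0.417). The difference between the genotype effects of the media was -0.47 (SE 0.139, adjusted p 0.0396). It passed without control adipogenic library 1 or 2 or knockout adipogenic library 3, and not without control osteogenic library 1 (adjusted p 0.0785), 2 (0.0831) or 3 (0.0707), knockout osteogenic library 1 (0.0893), 2 (0.0729) or 3 (0.0688), control adipogenic library 3 (0.0757) or knockout adipogenic library 1 (0.0534) or 2 (0.0527), nor with TPM (0.136), voom (0.0594), a pseudocount of 0.1 (0.0524) or no filter (0.0939). Without both libraries standing apart it was -0.31 (adjusted p 0.0420).

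Crem (ENSMUSG00000063889) encodes relatives of CREB, among them the repressor ICER that cAMP induces from an internal promoter; FPKM of the whole gene does not separate these products. Of its exonic length 8.01% is shared with Gm6225 on the opposite strand, and whether the libraries kept the strand is not stated. Its level was 1.02, 1.15 and 1.09 FPKM in control osteogenic and 1.46, 1.67 and 1.67 in knockout osteogenic libraries. Values in adipogenic medium were 2.01, 1.42 and 2.39 FPKM in control and 1.07, 1.11 and 1.18 in knockout libraries. The genotypes did not overlap in either medium, and knockout libraries were the higher in osteogenic and the lower in adipogenic medium. Control osteogenic and knockout adipogenic libraries overlapped at the low end, and knockout osteogenic and control adipogenic libraries at the high end.

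Crem gave the firmest genotype difference of the tested members. Knockout cells had less of it in adipogenic medium, with a log2 difference of -0.46 (SE 0.109, adjusted p 0.0103; lower in 3 of 3 libraries), a ratio of mean FPKM of 0.577. It passed with each library left out in turn (adjusted p 0.000168 to 0.0381) and without both libraries standing apart (-0.58, adjusted p 0.000498), and did not when only the adipogenic libraries were fitted (adjusted p 0.0828). In osteogenic medium knockout minus control was 0.32 (SE 0.109, adjusted p 0.109; unadjusted p 0.0159), which passed with voom (0.57, adjusted p 0.0479) and with only the osteogenic libraries in the fit (adjusted p 0.0197). The difference between the genotype effects was -0.77 (SE 0.154, adjusted p 0.00697) and passed with each of the 12 libraries left out (adjusted p 0.000119 to 0.0209). In control cells Crem was higher in adipogenic medium by 0.48 (SE 0.109, adjusted p 0.0138), a call lost without control osteogenic library 1 (0.46, adjusted p 0.0510), without control adipogenic library 1 (0.46, adjusted p 0.0525) and with only control libraries in the fit (adjusted p 0.102). In knockout cells the difference by medium was -0.29 (adjusted p 0.0708), which passed with voom (-0.46, adjusted p 0.0410), with only knockout libraries in the fit (adjusted p 0.0230) and without both libraries standing apart (-0.28, adjusted p 0.0210).

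Nr4a1, Nr4a2 and Nr4a3 encode orphan nuclear receptors of 1 family, all immediate early genes whose promoters are printed above. Nr4a1 (ENSMUSG00000023034; chr15:101254269-101274795) read 2.29, 2.97 and 2.87 FPKM in control osteogenic and 2.84, 3.01 and 2.80 in knockout osteogenic libraries. The adipogenic libraries held 1.28, 2.03 and 2.29 FPKM in control and 1.56, 1.48 and 1.56 in knockout libraries. The genotypes overlapped in both media, and every adipogenic library was below every osteogenic library, by a narrow margin between control adipogenic library 3 and control osteogenic library 1.

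Nr4a1 fell in adipogenic medium in knockout cells, by 0.62 (SE 0.123, adjusted p 0.00461; lower in 3 of 3 libraries), and the call held with each library left out in turn (adjusted p 0.0146 to 0.0213). In control cells the difference by medium was -0.38 (SE 0.123, adjusted p 0.0484). That call was lost without control osteogenic library 1 (-0.47, adjusted p 0.0521), 2 (-0.33, adjusted p 0.147) or 3 (-0.35, adjusted p 0.128) and without control adipogenic library 1 (-0.23, adjusted p 0.125). It was also lost with a pseudocount of 0.1 (adjusted p 0.0528), no filter (0.107) and only control libraries in the fit (0.187), and was -0.43 (adjusted p 0.0307) without both libraries standing apart. Knockout minus control was 0.07 (adjusted p 0.801) in osteogenic medium, where its sign turned without control library 1 (-0.01, adjusted p 0.972). The adipogenic difference was -0.16 (adjusted p 0.342), and it passed without control library 1 (-0.32, adjusted p 0.0296). The genotype effects of the media differed by -0.23 (adjusted p 0.375).

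Nr4a2 (ENSMUSG00000026826; chr2:57106830-57124003) rested on 22 to 79 fragments a library. Its level was 0.516, 0.410 and 0.599 FPKM in control osteogenic and 0.946, 0.599 and 0.663 in knockout osteogenic libraries. For adipogenic cultures the values were 0.929, 0.612 and 1.20 FPKM in control and 0.289, 0.301 and 0.337 in knockout libraries. Knockout adipogenic libraries were the lowest of all with no overlap, and the other 3 groups overlapped in the order control osteogenic, knockout osteogenic, control adipogenic.

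Nr4a3 (ENSMUSG00000028341; chr4:48045153-48086447) was close to the limit of what these libraries can show. It had 1, 7 and 2 fragments in control osteogenic and 12, 15 and 12 in knockout osteogenic libraries, or 0.00921, 0.0695 and 0.0189 FPKM against 0.112, 0.138 and 0.1101. In adipogenic medium it had 15, 17 and 26 fragments in control and 4, 5 and 5 in knockout libraries, or 0.152, 0.136 and 0.268 FPKM against 0.0356, 0.0443 and 0.0439. The genotypes did not overlap in either medium, with knockout libraries the higher in osteogenic and the lower in adipogenic medium, as for Crem and Pde4d. Control osteogenic and knockout adipogenic libraries overlapped, and so did knockout osteogenic and control adipogenic libraries.

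Fos (ENSMUSG00000021250; chr12:85473890-85477273), a subunit of the AP-1 transcription factor, was the most abundant member. It read 31.9, 40.3 and 37.6 FPKM in control osteogenic and 34.8, 36.5 and 35.2 in knockout osteogenic libraries. Adipogenic cultures gave 35.3, 15.2 and 33.3 FPKM in control and 30.4, 17.4 and 17.1 in knockout libraries. Control adipogenic library 2 was the lowest of all and knockout adipogenic library 1 lay near the controls, so the spread within each adipogenic group was larger than the difference between their means. All neighbours in the order of means (knockout adipogenic, control adipogenic, knockout osteogenic, control osteogenic) overlapped.

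No difference of Fos passed with all libraries. Knockout minus control was -0.32 (SE 0.296, adjusted p 0.438) in adipogenic medium, -0.69 (adjusted p 0.0180) without control library 2 and -0.95 (SE 0.0889, adjusted p 2.15e-05) without both libraries standing apart. Adipogenic minus osteogenic in knockout cells was -0.74 (SE 0.296, adjusted p 0.0898), -1.001 (adjusted p 0.0371) without knockout adipogenic library 1 and -1.001 (adjusted p 1.82e-05) without both, and it passed with only knockout libraries in the fit (adjusted p 0.0329). The difference between the genotype effects was -0.28 (adjusted p 0.665) and, without both, -0.92 (adjusted p 0.000197). In control cells the difference by medium was -0.46 (adjusted p 0.282) and -0.08 (adjusted p 0.420) without both. In osteogenic medium knockout minus control was -0.04 (adjusted p 0.965), and the sign turned without control library 2 (0.03, adjusted p 0.976). As with Pde4b, the libraries that decided these calls were also those with unusual macrophage sums for their group, and the part of those cells was not tested.

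Sik1 (ENSMUSG00000024042; chr17:31844250-31855804), a salt-inducible kinase that restrains the CREB coactivators, had the opposite order to Pde3b. Its level was 5.29, 5.23 and 4.84 FPKM in control osteogenic and 3.85, 3.99 and 3.75 in knockout osteogenic libraries. Values in adipogenic medium were 8.27, 4.08 and 8.09 FPKM in control and 10.7, 9.11 and 8.58 in knockout libraries. The genotypes did not overlap in either medium, and knockout libraries were the lower in osteogenic and the higher in adipogenic medium. Control adipogenic library 2 was below the control osteogenic libraries, and the other adipogenic libraries were above all osteogenic ones.

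Sik1 was higher in adipogenic medium in knockout cells, by 1.10 (SE 0.192, adjusted p 0.00227; higher in 3 of 3 libraries), or 2.45 times in mean FPKM, and the call held with each library left out in turn (adjusted p 0.00735 to 0.0105). In control cells the difference by medium was 0.30 (adjusted p 0.278) with all libraries and 0.58 without control adipogenic library 2 (adjusted p 0.000182) or without both (adjusted p 1e-05). Knockout minus control was -0.33 (SE 0.192, adjusted p 0.348) in osteogenic medium, which passed with only osteogenic libraries in the fit (adjusted p 0.00326). The adipogenic difference was 0.47 (SE 0.192, adjusted p 0.0851), which passed with TPM (0.64, adjusted p 0.00923), with voom (0.70, adjusted p 0.0104) and without control library 1 (0.62, adjusted p 0.0490), and was 0.10 (adjusted p 0.141) without both libraries standing apart. The difference between the genotype effects was 0.80 (SE 0.271, adjusted p 0.0625). It passed with TPM (0.98, adjusted p 0.0116), with voom (1.09, adjusted p 0.0178), without control adipogenic library 1 (0.95, adjusted p 0.0386), 2 (0.52, adjusted p 0.00293) or 3 (0.94, adjusted p 0.0465), and without both (0.43, adjusted p 0.000786). Recovered fragments of Sik1, unlike those of the other members, were not whole in most libraries (492.7 in control osteogenic library 1). They were rounded for voom, and why they were not whole was not tested.

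**Figure D4:**
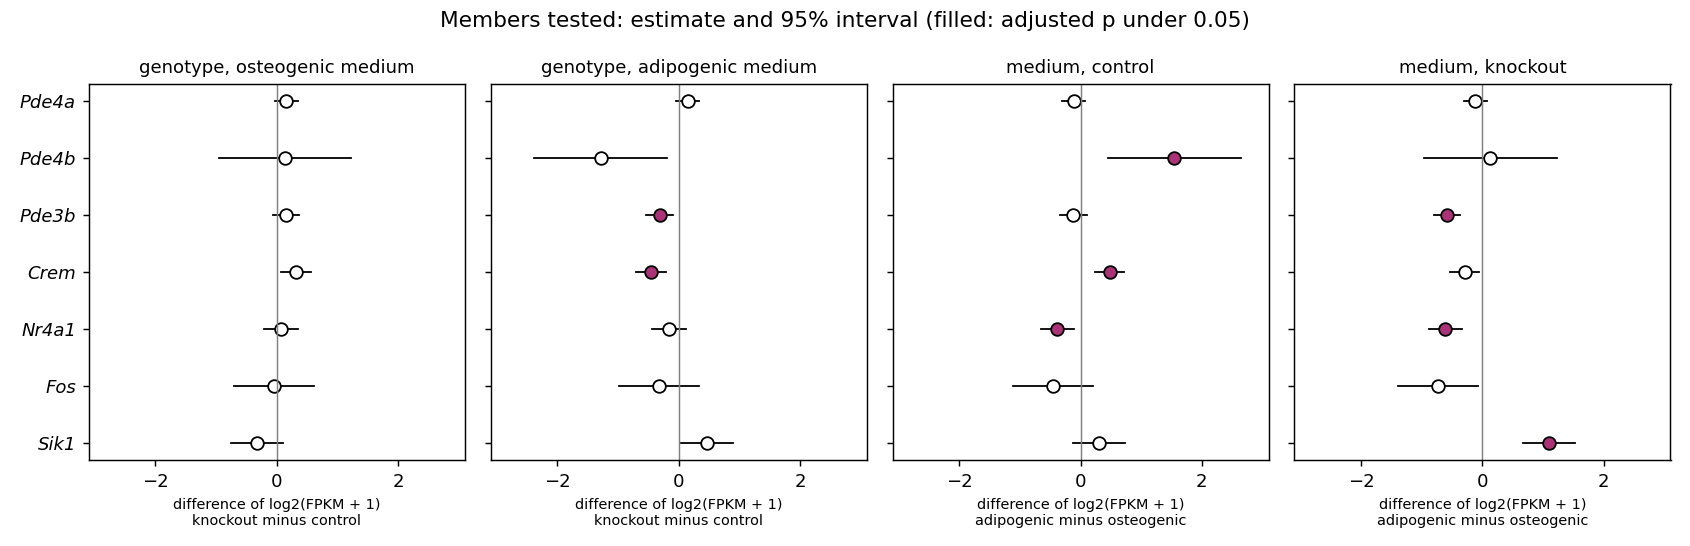
Difference of log2(FPKM + 1) for the 7 tested members in 4 comparisons, with its 95% interval; filled points have an adjusted p under 0.05. Sik1 lies at 1.10 and Pde3b at -0.58 between the media in knockout cells, and the intervals of Pde4b and Fos are the widest.

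Counted over the 7 tested members, the calls were few in each comparison. The comparisons share groups and therefore libraries, so their counts are not separate evidence. Knockout against control in osteogenic medium called 0 members with limma on log2(FPKM + 1), beside 4.94% of all 12871 tested genes called higher and 4.15% lower. There 1 member had an unadjusted p under 0.05 (Crem). By voom 1 was called (Crem), beside 7.25% of all genes, and the fit to the osteogenic libraries alone called 2 (Crem and Sik1), beside 26.6%. In adipogenic medium 0 members were higher and 2 lower (Pde3b and Crem), beside 16.7% of all genes higher and 16.5% lower. TPM and voom each called 1 higher (Sik1) and 1 lower (Crem) there, beside 32.3% and 35.9% of all genes called. The count was 4 without control library 1 (with Sik1 and Nr4a1 added), 4 without control library 2 (Fos, Pde4a, Pde4b and Crem), 1 without control library 3 (Crem) and 4 without both libraries standing apart. Of all genes 33.2% were called with all libraries, 23.5% without control library 1, 51.0% without control library 2, 24.0% without control library 3 and 52.0% without both.

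For the difference between the genotype effects of the media, 0 members were higher and 2 lower (Pde3b and Crem), beside 10.9% and 9.58% of all genes, and TPM and voom each called 1 higher (Sik1) and 1 lower (Crem). With all libraries 20.4% of all genes were called. The count of members was 1 (Crem) without any 1 of the 6 osteogenic libraries, beside 14.3% to 14.8% of all genes. Without knockout adipogenic library 1 or 2 the count was also 1 (Crem), beside 19.7% and 14.7%. It was 3 without control adipogenic library 1, beside 16.4%, 4 without control adipogenic library 2, beside 42.2%, and 5 without both, beside 45.9%. Between the media in control cells 2 members were higher (Crem and Pde4b, the latter no support as said above) and 1 lower (Nr4a1), beside 10.5% and 12.3% of all genes. TPM and voom each called 1 higher (Crem) and 1 lower (Nr4a1), beside 16.4% and 20.8% of all genes called. That count was 0 without control osteogenic library 1 or control adipogenic library 1, beside 11.4% and 10.8%. It was 1 without control osteogenic library 2 or 3 (Crem), beside 11.1% and 12.3%, and 2 without control adipogenic library 3, beside 10.6%. Without control adipogenic library 2 the count was 4, beside 47.8%, and without both it was 5, beside 50.2%. In knockout cells 1 member was higher (Sik1) and 2 lower (Pde3b and Nr4a1), beside 13.9% and 14% of all genes. There voom called 1 higher and 3 lower (with Crem added), beside 26.5% of all genes called, and the count was 6 without both, beside 42.4%.

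The share of calls in each direction depended on the scaling, and why it did was not tested. The deposited values were already at a common median ratio. With TPM the median difference of all genes moved by 0.15 for genotype in adipogenic medium, by 0.16 for the difference between genotype effects and by -0.11 for medium in control cells, and with voom the first 2 of these moved by 0.14 and 0.13. In adipogenic medium 50.4% of the genes called were higher in knockout cells, against 78.3% with TPM and 75.4% with voom. For the difference between genotype effects 53.1% were higher, against 75.3% and 71.1%, for medium in control cells 46.1%, against 30.7% and 33.4%, and for medium in knockout cells 49.7%, against 65.4% and 62.5%. The sign of each member's called difference was the same under both.

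The 3 members under the filter were tested with voom on fragments, keeping genes with at least 10 fragments in at least 3 libraries (15618 genes), a test added after seeing the data. In osteogenic medium 2 of the 3 were higher in knockout cells, Pde4d by 0.60 (SE 0.145, adjusted p 0.0329) and Nr4a3 by 2.13 (SE 0.525, adjusted p 0.0366), beside 3.81% of all genes, while Nr4a2 gave 0.52 (adjusted p 0.295). In adipogenic medium all 3 were lower, with -0.67 for Pde4d (SE 0.140, adjusted p 0.0045), -1.34 for Nr4a2 (SE 0.279, adjusted p 0.00446) and -1.84 for Nr4a3 (SE 0.449, adjusted p 0.00997), beside 8.01% of all genes. The difference between genotype effects was -1.27 for Pde4d (adjusted p 0.00181), -1.86 for Nr4a2 (adjusted p 0.00743) and -3.97 for Nr4a3 (adjusted p 0.00319), so 3 of 3 were called lower beside 5.73% of all genes. Nr4a3 reached 10 fragments only in knockout osteogenic and control adipogenic libraries, so it too passed its filter through the groups where it was high, and its calls are no support for a difference. Its values in osteogenic medium rest on 1 to 7 fragments in control libraries, so the fitted size depends on the small count that voom adds.

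Between the media in control cells voom called 2 of these 3 higher in adipogenic medium, Pde4d by 0.72 (adjusted p 0.00812) and Nr4a3 by 2.58 (adjusted p 0.00812), beside 6.54% of all genes, with 0.70 for Nr4a2 (adjusted p 0.0751). In knockout cells it called 2 lower, with -0.55 for Pde4d (adjusted p 0.0172) and -1.16 for Nr4a2 (adjusted p 0.0136), beside 9.2% of all genes, with -1.40 for Nr4a3 (adjusted p 0.0506). With no filter on log2(FPKM + 1), the 3 genes had adjusted p of 0.0216, 0.0162 and 0.0142 for genotype in adipogenic medium and of 0.0151, 0.0288 and 0.0114 for the difference between genotype effects, in the order Pde4d, Nr4a2, Nr4a3. These 3 genes were not refitted with single libraries left out.

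Crem, Pde4d, Nr4a2 and Nr4a3 thus shared an order of group means in which control osteogenic and knockout adipogenic were the lower pair and knockout osteogenic and control adipogenic the higher pair. Over the 12 libraries, as a description, the Pearson r of log2(FPKM + 1) was 0.953 between Crem and Nr4a3, 0.920 between Crem and Pde4d and 0.843 between Crem and Nr4a2. Pde3b and Sik1 had an r of -0.93. These libraries share groups, so r mostly restates the order of the groups. The macrophage sums fell into the same pairs of group means, 10761 FPKM in control osteogenic and 5437 in knockout adipogenic against 12475 in knockout osteogenic and 13391 in control adipogenic libraries. So did the means of the neutrophil sums, 4.50 and 1.68 against 4.99 and 51.4 FPKM, although the osteogenic groups overlapped there. That sum was at least 98.0% S100a8 in each library, so it read 1 gene. Its control adipogenic mean rested on libraries 1 and 3 (65.8 and 86.0 FPKM). Library 2 of that group (2.53 FPKM) lay below every osteogenic library (3.65 to 6.01 FPKM) and so did not share the order. The macrophage sum was mostly Lyz2, and the list as a whole did not share this order. In osteogenic medium 0 of its 9 markers were called higher and 2 lower in knockout cells (Csf1r and Cd163, median -0.13). Control adipogenic library 2 had a lower macrophage sum than every control osteogenic library (6979 against 10524 to 10938 FPKM) but more of each of these 4 members. The part of these cells in the shared order was not tested.

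Of 8 genes that glucocorticoids induce, 6 (Fkbp5, Tsc22d3, Zbtb16, Klf9, Sgk1 and Per1) had control osteogenic and knockout adipogenic as the 2 higher group means, the lower pair for Crem. Dusp1 and Mt2 did not, since both were higher in control adipogenic than in control osteogenic libraries. Fkbp5, a cochaperone of the glucocorticoid receptor, read 30.6, 32.6 and 31.3 FPKM in control osteogenic and 6.90, 6.29 and 6.19 in knockout osteogenic libraries. The adipogenic libraries held 3.91, 5.46 and 3.69 FPKM in control and 29.9, 42.8 and 41.9 in knockout libraries. Control osteogenic and knockout adipogenic libraries were the high pair for Fkbp5, with no overlap with the other groups, although both media held dexamethasone and the adipogenic medium the more of it. Labels of genotype and medium were used as given and were not tested, and every genotype and medium difference here, those of Crem, Pde4d, Nr4a2 and Nr4a3 included, holds only if they are right. The list was chosen with earlier results of these data known, and its part in the members' result was not tested.

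Of the 8 genes on that list, 0 were higher and 6 lower in knockout cells in osteogenic medium (median difference -1.14, against -0.01 over all tested genes, of which 4.94% were called higher and 4.15% lower), led by Fkbp5 (-2.13), Tsc22d3 (-1.43), Per1 (-1.16) and Klf9 (-1.15). In adipogenic medium 8 were higher and 0 lower (median 1.24, against -0.01, with 16.7% and 16.5% of all genes called), led by Fkbp5 (2.87), Tsc22d3 (2.50), Zbtb16 (2.05) and Klf9 (1.28), and with TPM also 8 were higher. Zbtb16 reached 1 FPKM only in control osteogenic and knockout adipogenic libraries, where it was high, so its calls are no support for a difference. By medium, 6 were lower in control cells (median -1.08, against 0.01, beside 12.3% of all genes lower) and 8 higher in knockout cells (median 1.32, against 0.00, beside 13.9% higher). Dusp1, a phosphatase of MAP kinases, had the highest mean on the list, 50.1 FPKM, and differed by -0.26 (adjusted p 0.0278) and 0.54 (adjusted p 0.000191) between genotypes in the osteogenic and adipogenic medium.

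**Figure D5:**
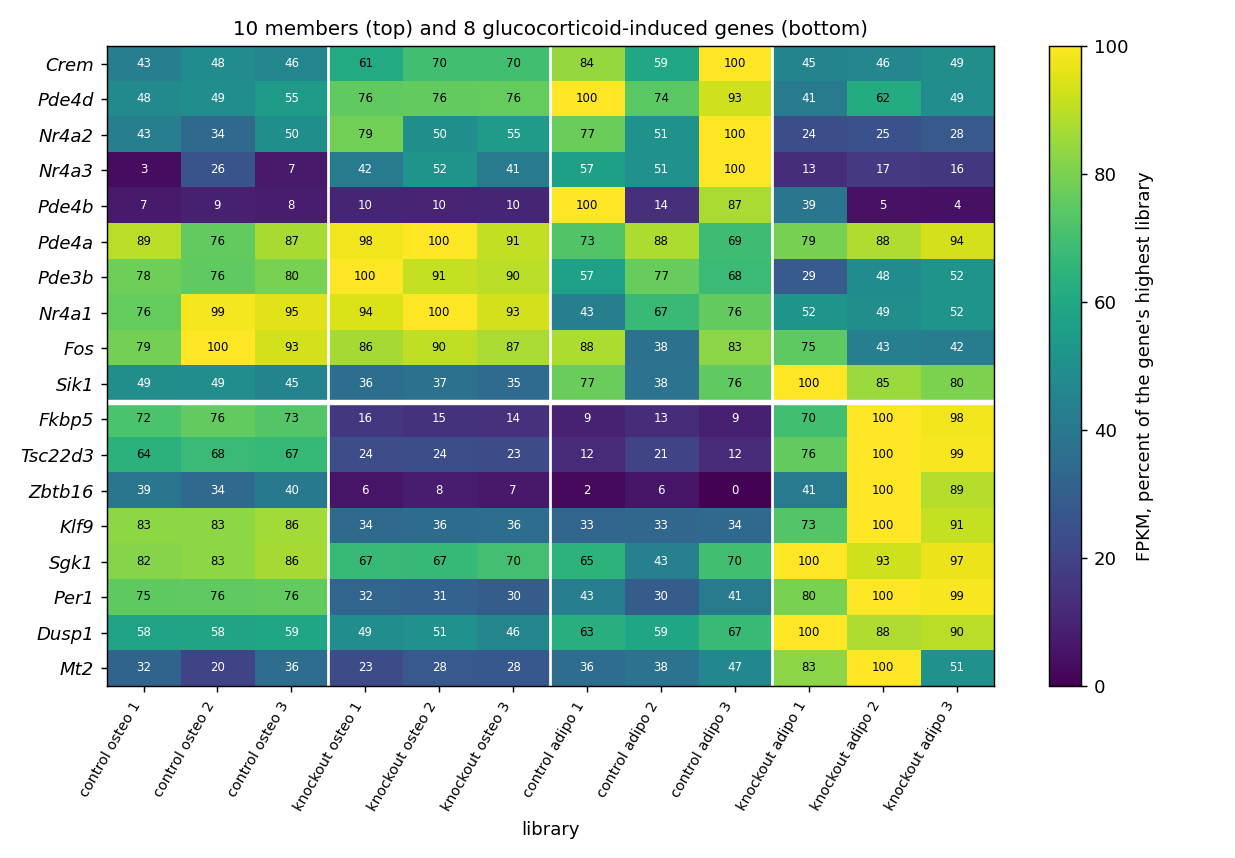
FPKM of the 10 members and of 8 glucocorticoid-induced genes in each library, as a percentage of the gene's highest library; white lines part the groups. Crem, Pde4d, Nr4a2 and Nr4a3 are high in knockout osteogenic and control adipogenic libraries, where Fkbp5, Tsc22d3, Zbtb16 and Klf9 are low.

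The counts for the lists below are descriptions, not tests of a list, and are to be read beside the share of all genes called between genotypes: 9.09% in osteogenic medium (4.13% to 5.21% with 1 library left out and 26.6% with only the libraries compared), and in adipogenic medium 33.2% with all libraries, 51.0% without control library 2 and 21.7% to 29.9% without another adipogenic library. Upstream, of 23 genes of Gs-coupled receptors 11 were tested, and in osteogenic medium 0 were higher and 4 lower in knockout cells (median -0.01, against -0.01 over all genes), among them Adrb1 (-1.06), Vipr2 (-1.03) and the prostaglandin E receptor Ptger2 (-0.73). The count was 2 without control library 2 or 3 or knockout library 1 or 2, and 3 with TPM. In adipogenic medium 5 were higher and 3 lower (median -0.43, against -0.01), among them the prostacyclin receptor Ptgir (-1.64), Adrb1 (0.91), Calcrl (-0.78) and Vipr2 (0.69). These 8 calls became 4 without knockout library 2 or 3 and 5 without control library 1 or 3. Adrb1 and Vipr2 reached 1 FPKM only in control osteogenic and knockout adipogenic libraries, the higher groups in these comparisons, so their calls are no support for a difference. Adrb1 read 0.024, 0.460 and 0 FPKM in the control adipogenic libraries and 0.748, 1.60 and 1.18 in the knockout ones. The receptor for parathyroid hormone, Pth1r, had the highest mean, 5.97 FPKM.

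Of 15 genes of cAMP synthesis (adenylyl cyclases and the G proteins that control them) 9 were tested. In osteogenic medium 2 were higher and 0 lower in knockout cells (median -0.09, against -0.01), Adcy3 (0.63) and Adcy6 (0.17); 0 were called with TPM or without control library 1 or 2 or knockout library 1, 2 or 3, and 1 without control library 3. The number called over all alternative fits was 0 to 7. In adipogenic medium 3 were higher and 2 lower (median 0.17, against -0.01), among them Adcy7 (-0.50), Gnai1 (0.42), Gnas (0.30) and Adcy6 (0.22), while with TPM 3 were higher and 0 lower, and without control library 2 all 9 were called, beside 51.0% of all genes. Gnai2, an inhibitory G protein, had the highest mean, 201 FPKM.

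Other phosphodiesterase genes lay on both sides of the members in level. Of 17 genes 6 were tested, and Pde6c was listed at 0 in all 12 libraries. Pde8a, which encodes a cAMP-specific enzyme that isobutylmethylxanthine inhibits poorly, had the highest mean, 16.5 FPKM. Of the summed FPKM of all 21 phosphodiesterase genes, Pde4b made up 12.3% and 11.1% in control adipogenic libraries 1 and 3, 6.88% in knockout adipogenic library 1 and 1.91% in control adipogenic library 2. In the osteogenic medium 0 of the 6 were called by limma between genotypes (median -0.12, against -0.01), with 1 at an unadjusted p under 0.05 and 0 by voom. In adipogenic medium 1 was higher, Pde5a (0.54), and 4 lower (median -0.33, against -0.01), Pde1b (-0.57), Pde7b (-0.43), Pde8b (-0.39) and Pde8a; with TPM 1 was higher and 3 lower. Pde5a reached 1 FPKM only in the 3 knockout adipogenic libraries, and Pde7b only in 4 control libraries, 2 of them adipogenic. These 2 passed the filter through the side where they were high, and their calls are no support for a difference. Pde8b reached 1 FPKM in no knockout adipogenic library, but the 3 control osteogenic libraries were enough for it to pass.

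Of 11 genes of protein kinase A, its inhibitors and the cAMP-activated exchange factors 10 were tested. In osteogenic medium the inhibitor genes Pkia (0.56) and Pkib (-0.54) passed (median -0.01, against -0.01); 0 did with TPM or without control library 1, 2 or 3 or knockout library 1 or 2, and 1 without knockout library 3. Across all alternative fits 0 to 5 were called. Pkia reached 1 FPKM in only 6 of the 12 libraries and was the lower in control osteogenic libraries, so its call is no support for a difference. In adipogenic medium 4 were higher and 1 lower (median 0.21, against -0.01), among them Rapgef3 (0.83), the exchange factor Epac1, Prkar2b (-0.51), Prkar1b (0.31) and Prkar2a (0.31). These 5 calls became 3 without knockout library 2 and 2 without knockout library 3 or control library 3. Prkar1a, a regulatory subunit, had the highest mean, 87.1 FPKM.

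Of CREB, a relative, its coactivators and the other salt-inducible kinases all 9 genes were tested, 0 were called by limma in osteogenic medium (median -0.03, against -0.01), with 3 at an unadjusted p under 0.05 and 1 by voom (Ep300). In adipogenic medium 0 were higher and 2 lower (median -0.09, against -0.01), Sik3 (-0.31) and Creb1 (-0.27). With TPM 0 were called there, and without control library 2 the count was 4. Atf1, a close relative of CREB, had the highest mean, 15.95 FPKM.

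Of 11 other CREB targets 6 were tested, and 2 of them, Per1 and Dusp1, are also on the glucocorticoid list. In osteogenic medium 0 were higher and 2 lower in knockout cells (median 0.18, against -0.01), Per1 (-1.16) and Dusp1 (-0.26); 1 was called with TPM or without control library 1, 2 or 3 or knockout library 1 or 3. Alternative fits called 1 to 5. In adipogenic medium 3 were higher and 0 lower (median 0.37, against -0.01), Per1 (1.20), Bdnf (0.75) and Dusp1 (0.54), with 6 called without control library 2. Junb, an AP-1 subunit, had the highest mean, 63.3 FPKM, and Pck1 was listed at 0 in all 12 libraries. By medium, Rgs2 (-1.59), Per1 (-0.93) and Egr1 (-0.78) were lower in adipogenic medium in control cells, beside 12.3% of all genes, with 5 called without control adipogenic library 2, beside 47.8%. In knockout cells Per1 (1.43) and Dusp1 (0.92) were higher there, beside 13.9% of all genes, and Rgs2 (-1.50) and Egr1 (-1.07) lower, beside 14%.

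Of 16 other immediate early genes 15 were tested. In osteogenic medium 4 were higher and 2 lower in knockout cells (median 0.04, against -0.01), among them Egr2 (0.80), Atf3 (-0.48), Klf2 (0.38) and Ier2 (0.27); with TPM 0 were higher and 2 lower, and the 6 calls became 2 without control library 1 or 3 or knockout library 1 or 3 and 1 without control library 2. This count was 1 to 12 over all alternative fits. In adipogenic medium 2 were higher and 2 lower (median 0.04, against -0.01), Ier3 (-1.50), Atf3 (-1.07), Klf4 (0.56) and Jun (0.13); with TPM 5 were higher and 2 lower, and the 4 calls became 1 without control library 1 or 3 or knockout library 2 or 3. Ier3 had the highest mean, 55.5 FPKM, and read 151, 39.5 and 156 FPKM in the control adipogenic and 51.9, 25.9 and 28.8 in the knockout adipogenic libraries. As for Pde4b, control libraries 1 and 3 were high and control library 2 lay within the range of the knockout libraries.

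The tested genes most like each of the 7 tested members over the 12 libraries, by Pearson r of log2(FPKM + 1) and with no test, were these. Pde4b was followed most closely by Mvp (0.996), Slamf8 (0.996) and Tnip1 (0.994), and Sik1 by Sdc4 (0.984), Fgd3 (0.981) and Itga5 (0.973). Pde3b was nearest to Tnfrsf21 (0.962), Taf1 (0.961) and Nxpe5 (0.960), and Crem to Igfbp5 (0.962), Hsph1 (0.958) and Ugp2 (0.957). For Pde4a they were Bnc2 (0.940), Rab28 (0.917) and Rbpms2 (0.908). For Nr4a1 they were Ptgs1 (0.940), Gm12602 (0.916) and Ttll4 (0.907), and for Fos Trpm2 (0.937), Mir1198 (0.880) and Tgs1 (0.879).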

How the data were processed

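RNA-seq gave 1 table of FPKM values, deposited by the authors, for 54532 genes in 12 libraries; their notes name Bowtie 0.12.2 and mm9. Members and lists were chosen with earlier results of these data known. Fragments were recovered from FPKM and exon lengths of GENCODE M21. The value of 1 fragment in each library was estimated from the whole-number spacing of its low values. At least 98.16% of values under 30 fragments were whole within 0.02, a share measured on the same low values. limma 3.58.1 (R 4.3.3; eBayes with trend, one mean per group) was fitted to log2(FPKM + 1) of the 12871 genes with at least 1 FPKM in at least 3 libraries, and Benjamini-Hochberg adjusted p was taken over all of them with a threshold of 0.05; the pipeline was tested on simulated data. Named from each list (Gs-coupled receptors, cAMP synthesis, other phosphodiesterases, protein kinase A and Epac, CREB machinery, other CREB targets, immediate early, glucocorticoid-induced, and stromal, adipocyte, macrophage, endothelial, lymphoid and neutrophil markers) were up to 4 past the threshold per comparison by absolute difference and the highest by mean; Chd7, all members and 3 neighbours by r were named too. Per1 and Dusp1 are on 2 lists. Alternatives were a pseudocount of 0.1, no filter, TPM, median-ratio scaling, voom on fragments, only the libraries compared, a replicate block and each library left out. Python 3.11.15, numpy 2.4.6, pandas 2.3.3 and matplotlib 3.10.9 were used. Exon-level reads were not analysed here.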

Additional observations from a re-analysis of the deposited data

Results flagged for a closer look

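For 4 members the genotype difference in adipogenic medium differed from that in osteogenic medium by a direct test of the difference. On the log2(FPKM + 1) scale the difference was -0.77 for Crem and -0.47 for Pde3b, and with voom on fragments it was -1.27 for Pde4d and -1.86 for Nr4a2. These 4 come from 2 fits, and no single fit called all of them. With voom Pde3b did not pass (adjusted p 0.0594), while Sik1 passed in the other direction (1.09, adjusted p 0.0178). Nr4a3 gave -3.97 with voom but passed the fragment filter only through the groups where it was high, so its call is no support for a difference. The Pde3b call was lost without 9 of the 12 libraries, each left out in turn, as given above.

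By limma on log2(FPKM + 1), which called 10.9% of all tested genes higher and 9.58% lower, 1 of 6 tested other phosphodiesterases (Pde5a, 0.48, which passed the filter only through the knockout adipogenic libraries), 2 of 9 genes of cAMP synthesis (Adcy7, -0.38, and Gnas, 0.35), 4 of 11 Gs-coupled receptors (among them Ptgir, -1.88, and Adrb1, 1.97) and 4 of 10 genes of the protein kinase A and Epac list (among them Pkib, 0.78, and Pkia, -0.76) differed between the media. So did 3 of 6 other CREB targets (Per1, 2.36, Dusp1, 0.80, and Bdnf, 0.49), 7 of 15 other immediate early genes (among them Ier3, -2.16, and Egr2, -1.02) and 7 of 8 glucocorticoid-induced genes (among them Fkbp5, 5.00, and Tsc22d3, 3.93). Of these Adrb1, Vipr2 and Zbtb16 passed the filter only through control osteogenic and knockout adipogenic libraries, where they were high, so their calls are no support for a difference. Pkia reached 1 FPKM in only 6 of the 12 libraries. It was lower in control osteogenic than in knockout osteogenic or control adipogenic libraries, so its call is no support either. Without control adipogenic library 2, where 42.2% of all genes were called, 5 of these counts were over 1.5 times larger: 2 other phosphodiesterases, 4 for cAMP synthesis, 9 receptors, 7 for protein kinase A and Epac and 5 other CREB targets. The cAMP synthesis count was 0 without control osteogenic library 1, 2 or 3, knockout osteogenic library 1 or 2, control adipogenic library 1 or knockout adipogenic library 3, and 1 without knockout osteogenic library 3 or knockout adipogenic library 2. The immediate early count was 2 without control osteogenic library 3 or knockout osteogenic library 2, 3 without knockout osteogenic library 3, and 4 without control osteogenic library 1 or 2, control adipogenic library 1 or 3 or knockout adipogenic library 3. On the list of CREB, its coactivators and kinases 0 of 9 genes were called, with 1 by voom (Ep300) and 2 without control adipogenic library 2. No list was tested against all genes, and the cause of these differences was not tested.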

How the results depend on the processing

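Of 533 member differences recomputed under an alternative, 439 kept their direction and their side of the threshold, 33 newly passed, 47 no longer passed and 14 changed sign. All 14 were differences that had not passed. Pde4a between genotype effects (-0.01) became 0.145 with TPM, 0.121 with voom, 0.127 without both libraries standing apart, and -0.0630 to 0.0745 with 1 library left out. Pde4b by medium in knockout cells (0.13) became -0.0130 with a pseudocount of 0.1, -0.0575 with voom, -0.334 without both, and -0.334 to 0.373 with 1 library left out. In osteogenic medium Nr4a1 (0.07) became -0.0133 to 0.121 and Fos (-0.04) -0.131 to 0.0335 with 1 library left out. The cause was not tested.

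Genes called for genotype in osteogenic medium, 1170, were 526 with TPM and 3418 with only the libraries compared, which estimates the spread without the adipogenic libraries. In adipogenic medium 4276 became 1671 with only the libraries compared and 6692 without both libraries standing apart. For the difference between genotype effects 2630 became 5902 without both. For medium in control cells 2935 became 490 with only the libraries compared and 6466 without both, and in knockout cells 3592 became 5463 without both. Leaving out both libraries was chosen after seeing the data. With 1 library left out at a time, the 5 counts ranged over 532 to 670, 2791 to 6569, 1798 to 5434, 1361 to 6156 and 2500 to 2864, in that order of comparisons.

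Tested members called ranged over 0 to 0, 1 to 4, 1 to 4, 0 to 4 and 3 to 4 with 1 library left out. In osteogenic medium 0 became 2 with only the libraries compared and 1 with voom, beside 26.6% and 7.25% of all genes called. In adipogenic medium 2 became 1 with no filter, 0 with only the libraries compared and 4 without both. Between genotype effects 2 became 1 with a pseudocount of 0.1 or no filter and 5 without both. For medium in control cells 3 became 1 with a pseudocount of 0.1 or no filter, 0 with only the libraries compared and 5 without both, and in knockout cells 3 became 5 with only the libraries compared and 6 without both. Beside the counts of 0 by limma on the compared libraries alone, 1 member in adipogenic medium and 2 for medium in control cells had an unadjusted p under 0.05.

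With a replicate block (libraries of the same number paired) the counts of all genes were 744, 3889, 2176, 1943 and 2882, and the members called were 0, 3, 2, 2 and 3. Whether libraries of the same number belong together is not stated. The same-number r of deviations from the group mean was 0.466, 0.397 and -0.286 in adipogenic medium and near 0 in the other comparisons. These values cannot decide it, since each group mean rests on 3 libraries.

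Depth limits the low members: Nr4a3 had 1 to 26 fragments a library, Nr4a2 22 to 79 and Pde4d 79 to 167, so small differences in them were not detectable. A group of 3 gives a wide estimate of spread, and 1 library can make or end a call. Both deposited scaling and the pseudocount shape the fold changes given. Intervals cover the spread between libraries and not preparation, and the origin of the replicates is not stated.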
